A study of Homo sapiens with 4 samples.

Results

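The HOX genes encode homeodomain transcription factors that set identity along the head to tail axis of the embryo. In humans they stand in 4 clusters, HOXA on chromosome 7, HOXB on chromosome 17, HOXC on chromosome 12 and HOXD on chromosome 2, and their order along the DNA matches the order of their expression domains in the embryo, from anterior (paralogue 1) to posterior (paralogue 13). Genes with the same number in different clusters are paralogues. Many adult cells and cell lines keep a stable pattern of HOX expression that is held active by trithorax complexes and held silent by Polycomb complexes, and HOX proteins of the trunk groups bind DNA with TALE cofactors of the PBX and MEIS families. The members described here were all gene rows named HOXA, HOXB, HOXC or HOXD with a paralogue number, which were 39 of the 24934 rows of the table, with 11 in HOXA, 10 in HOXB, 9 in HOXC and 9 in HOXD.

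The RNA came from HEK-293, an established human embryonic kidney cell line, taken 48 h after transfection with 10 nM of siRNA. The knockdowns used siRNA si4 or siRNA si5 against ZSCAN5A, or siRNA si1 against ZSCAN5B, both of which encode SCAN domain zinc finger proteins, and a scrambled siRNA served as the negative control. One library was made from each treatment, 4 in all, so si4 and si5 are different siRNAs against the same gene and no difference from the control has a replicate check. The comparisons below carry no p-value for that reason, and a model that pools the spread is given only as an alternative in the closing section. Levels are FPKM, the fragments per kilobase of transcript that the authors computed and scaled to the total of mapped fragments, which can be compared between genes because they are per length.

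The FPKM of ZSCAN5A was 30.2% of the control with si4 and 29.5% with si5. ZSCAN5B rested on few fragments in every library, 6, 17 and 16 in si4, si5 and si1 against 15 in the scrambled library. Relative to that library its FPKM was 36.6%, 73.4% and 105% in the same order, and for si1 the exact 95% interval of 48.6% to 228% leaves the size of any knockdown poorly measured. The intervals for si4 and si5 were as wide, from 11.6% to 99.9% and from 34.5% to 158%. Since these data do not show ZSCAN5B lower with si1, that library is referred to as the library labelled ZSCAN5B knockdown. The siRNA libraries held 1.02 to 1.54 times the fragments of the control, with si5 the deepest, and their FPKM values summed to between 537181 and 546239 against 488036 in the control. Of 8 kidney lineage markers, 7 reached 1 FPKM, while PAX8 stayed between 0.0147 and 0.0398 FPKM in all 4 libraries. All 7 were lower than the control in the mean of si4 and si5, against 53.3% of all rows tested. With si1 5 were lower, against 51.5% of all rows tested. Their median log2 ratios were -0.27 and -0.11. In 5 of 7 the control was above all 3 siRNA libraries, against 36.2% of all rows. Together the 8 kidney markers summed to 33.7 to 37.7 FPKM in the siRNA libraries and 38.8 in the control. The summed level of 5 epithelial markers was 391 to 450 FPKM in the siRNA libraries and 368 in the control, with 2 lower in the mean of si4 and si5 and 0 with si1, and that of 5 neural or mesenchymal markers was 352 to 442 against 382 FPKM, with 3 and 0 lower. The summed level of 4 blood markers was 0.00337 to 0.0361 FPKM and that of 3 endothelial markers 0.160 to 0.193 FPKM, so no marker of either type reached 1 FPKM. The 4 fibroblast markers summed to 1.41 to 1.96 FPKM in the siRNA libraries and 2.197 in the control. Of them COL1A1 reached 1 FPKM, with log2 ratios of -0.577 and -0.242 and the control above all 3 siRNA libraries. PAX2 was the kidney marker past 1.5-fold, at 0.584, 0.615 and 0.608 FPKM in si4, si5 and si1 against 1.16 in the control. The part of these differences in the HOX levels was not tested.

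The HOXA, HOXB and HOXC clusters also hold a gene for miR-196, a microRNA known to act on HOX transcripts, and the sequences are shown because HOXC8, the member furthest below the control in both comparisons, carries several matches to its seed. The mature sequences are those of RefSeq (GRCh38.p14), with the seed, bases 2 to 8, in capitals.
miR-196a-5p: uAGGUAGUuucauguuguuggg
miR-196b-5p: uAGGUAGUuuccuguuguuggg
Both share a seed, whose match in DNA letters is ACTACCT. The 3′ UTR of HOXC8 (GENCODE, GRCh37) holds it at 3 places, at the positions given, and that of HOXA5 at 1, with the match in capitals.
HOXC8 at base 128: acactcacaactctaACTACCTg
HOXC8 at base 864: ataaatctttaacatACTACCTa
HOXC8 at base 1004: ccagcgtattttatcACTACCTa
HOXA5 at base 441: gatatttttattcaaACTACCTa
HOXA7 holds 4 matches and HOXA9 holds 2, while HOXB1, HOXB6, HOXB7 and HOXB13 hold 1 each. These make 8 of 39 HOX genes, or 20.5%, against 7.17% of all genes with a 3′ UTR. A match is a description of letters and not a measured site of action. The table lists MIR196B, MIR196A1 and MIR196A2 at 0 in every library, as it does all 7 microRNA rows inside the clusters, so the microRNA itself was not measured by these mRNA libraries.

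HEK-293 expressed nearly the whole family. A level of 1 FPKM or more in some library was reached by 36 of 39 members, called expressed here, with mean levels over the 4 libraries from 1.44 FPKM for HOXA2, a patterning gene of the hindbrain and pharyngeal arches, to 56.3 FPKM for HOXA10, a gene of the posterior trunk and reproductive tract. Of these, 19 members averaged at least 10 FPKM. The 3 exceptions lie at the ends of their clusters or near them. HOXB1, a hindbrain gene, rested on at least 1 fragment in si4 and 1 in si1 and was listed at 0 in si5 and the control. HOXC12 had at least 2, 2 and 3 fragments in si5, si1 and the control and was listed at 0 in si4. HOXD12 had at least 6, 15, 5 and 5 fragments in si4, si5, si1 and the control, or 0.139 to 0.274 FPKM. For HOXC12 and HOXD12 these whole numbers may be a fraction of the true fragments. They imply 11.5 and 13.9 fragments per FPKM and kb in the control, against a median of 51.3. HOXB1, HOXC12 and HOXD12 enter no ratio of the main comparisons below. HOXC12 and HOXD12 enter only the alternative without an expression limit in the closing section.

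**Figure D1:**
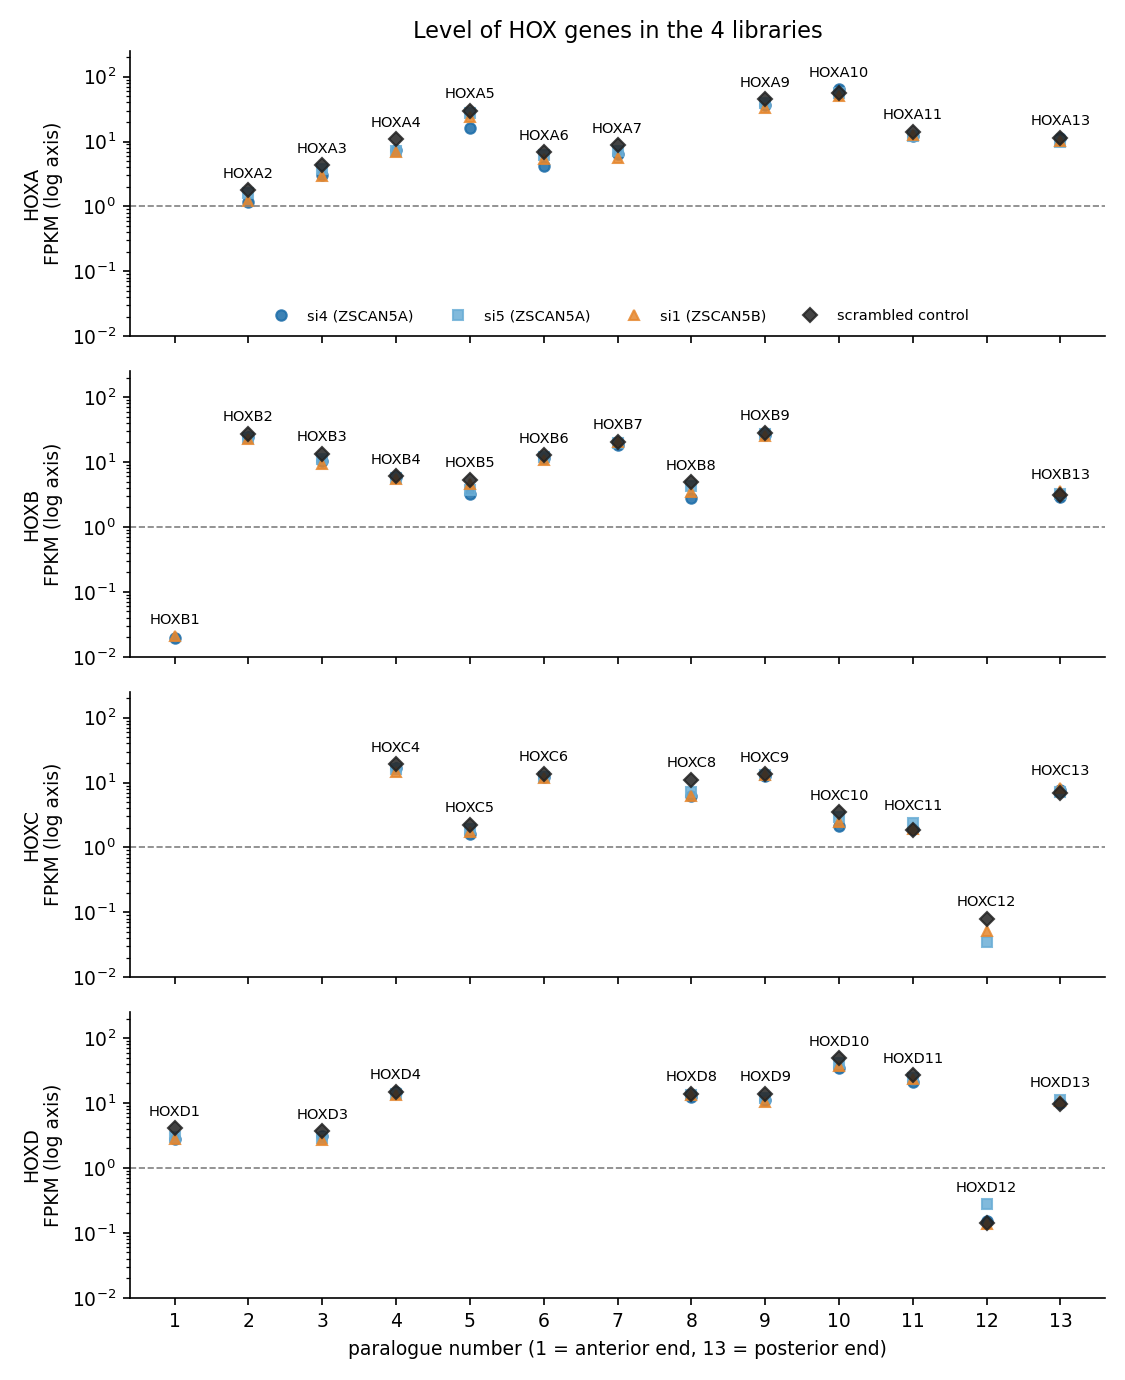
Level of HOX genes (FPKM, log axis) against its paralogue number, 1 panel per cluster, with 1 point for each of the 4 libraries and the 1 FPKM limit as a dashed line. Points at 0 are not drawn. Every gene drawn except HOXB1, HOXC12 and HOXD12 lies above the line, and the control (dark diamond) tops the siRNA libraries in most of the others.

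The HOXA cluster had the highest summed level, 195 FPKM in the control. By the median of its members HOXD was higher, at 13.8 against 10.8 FPKM in the control. HOXA10 (chr7:27210210-27219880) stood at 63.9, 55.8 and 49.7 FPKM in si4, si5 and si1 and at 55.7 in the control. It was above the control with si4, level with it with si5 and below it with si1. HOXA9 (chr7:27202057-27205149), known for its part in blood progenitors and leukaemia, was at 36.4, 38.5 and 33.2 FPKM in si4, si5 and si1 and at 44.9 in the control. HOXA5 (chr7:27180671-27183287), which patterns the lung and the neck to thorax boundary, followed in rank in every library. The rows of HOXA9 and HOXA10 overlap a readthrough row, HOXA10-HOXA9, so the division of fragments between them is uncertain.

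The other clusters had lower sums in the control, 122 FPKM in HOXB, 71.8 in HOXC and 136 in HOXD. In HOXB the highest members were HOXB9 (chr17:46698519-46703835), a thoracic gene, at 26.5, 27.1 and 25.4 FPKM in si4, si5 and si1 and 28.3 in the control, and HOXB2 (chr17:46620019-46622393), a hindbrain gene, at 24.6, 23.6, 22.3 and 27.5 FPKM in the same order. HOXB9 exceeded HOXB2 in each library by less than 4 FPKM. HOXB7 (chr17:46684595-46688383) came next, with 18.3, 19.8, 19.99 and 20.5 FPKM. All 3 were highest in the control.

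In HOXC the highest was HOXC4 (chr12:54410642-54449814), at 16.6, 16.4 and 14.7 FPKM in si4, si5 and si1 and 19.1 in the control. HOXC9 (chr12:54393877-54397120) had 12.7, 12.98, 13.1 and 13.4 FPKM and HOXC6 (chr12:54410642-54424607) had 12.4, 12.0, 11.9 and 13.6 FPKM, so that their order differed between the control and the siRNA libraries. The rows of HOXC4, HOXC5 and HOXC6 begin at the same base, and their shares of the common first exons were assigned by the authors' software. In HOXD, HOXD10 (chr2:176981492-176984670), known from lumbar motor neurons, led with 35.2, 42.0 and 37.8 FPKM in si4, si5 and si1 and 48.6 in the control. HOXD11 (chr2:176972084-176974316), which acts with HOXA11 in the developing kidney and forearm, had 20.7, 24.7, 23.2 and 26.9 FPKM. HOXD4 (chr2:177016113-177017949) had 14.7, 13.98, 13.2 and 14.9 FPKM. The control was again the highest library for each of these 6 genes.

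The question asked of the knockdowns was how each siRNA moved the family against the scrambled control. With the mean of si4 and si5 set against the control, 32 of the 36 expressed HOX genes were lower, against 53.3% of all 12993 rows tested. In bulk RNA, fewer cells that express a gene and less RNA of it per cell cannot be told apart. The median log2 ratio was -0.23 over the HOX genes and -0.02 over all rows. Past a limit of 1.5-fold, 2 members were lower, HOXC8 and HOXB5, where 3.11% of all rows were, and 0 members were higher, where 0.677% of all rows were. In the library labelled ZSCAN5B knockdown 32 of 36 were again lower, against 51.5% of 12921 rows, with a median log2 ratio of -0.30 over the HOX genes and -0.01 over all rows. Here 3 members were more than 1.5-fold lower, HOXC8, HOXA7 and HOXA4, where 3.17% of all rows were, and 0 were higher, where 0.844% of all rows were. Below the 10th percentile of the log2 ratios of all rows stood 8 of the 36 HOX genes with the ZSCAN5A siRNAs (22.2%) and 14 with si1 (38.9%). Most members thus differed from the control by less than 1.5-fold, and a larger share of them than of all rows stood in this low tail.

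Both comparisons share the control library, so they are not independent of each other. The order of the 4 libraries gives the same data without a ratio. The control was above all 3 siRNA libraries in 31 of 36 HOX genes, where 36.2% of all rows had this order, and below all 3 in 3 members, HOXC11, HOXC13 and HOXD13, where 30.1% of all rows did. HOXA10 and HOXB13 had a control value between those of the siRNA libraries. The 31 members were 10 of 11 in HOXA, 8 of 9 in HOXB, 6 of 8 in HOXC and 7 of 8 in HOXD. In 11 of 36 the control stood above the highest siRNA library by more than the siRNA libraries spanned among themselves on the log2 scale, which held for 15.5% of all rows. The lowest library was si1 in 16 members (19.97% of all rows), si4 in 15 (25.6%), the control in 3 (30.1%) and si5, the deepest library, in 2 (24.3%). The summed level of the 39 genes was 445, 472 and 436 FPKM in si4, si5 and si1 and 524 FPKM in the control. The siRNA sums were 84.98%, 90.1% and 83.3% of the control sum.

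**Figure D2:**
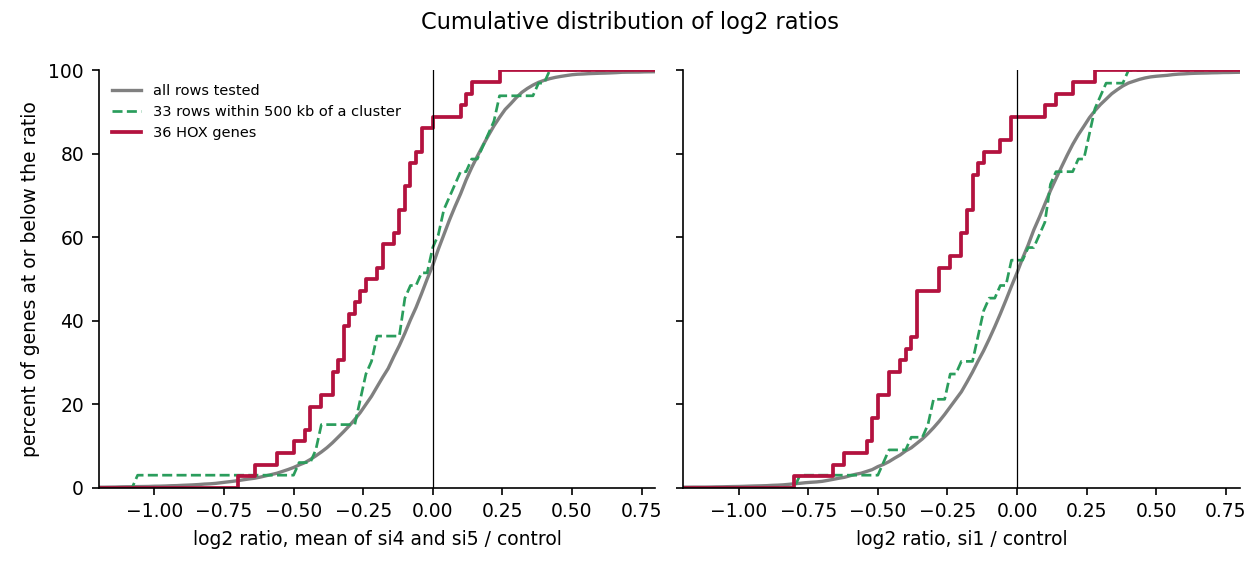
Percent of genes at or below each log2 ratio to the scrambled control, for the mean of si4 and si5 (left) and si1 (right). The curve of the 36 HOX genes lies left of that of all rows tested over most of the range, with medians of -0.23 and -0.30 against -0.02 and -0.01, while the 33 expressed rows within 500 kb of a cluster run close to all rows.

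HOXC8 (chr12:54402890-54406545), a gene of the thoracic trunk and the motor neurons that serve the forelimb, stood at 6.23 FPKM in the si4, 7.19 in the si5 and 6.28 in the si1 library against 11.01 in the control. All 3 siRNA libraries lay well below the control and within 1 FPKM of one another. No other member was more than 1.5-fold lower in both comparisons, as 1.57% of all rows were, or with each of the 3 siRNAs singly, as 1.12% of all rows were. The log2 ratio was -0.71 for the mean of si4 and si5 and -0.81 for si1. The values rest on 829, 1353 and 777 fragments against 1342. As a share of the control, si4 gave 56.6%, and the exact 95% Clopper-Pearson interval ran from 51.8% to 61.7%. It was 65.3% with si5 (60.5% to 70.4%) and 57.0% with si1 (52.1% to 62.3%). These intervals, like those that follow, hold for the libraries themselves and leave out all but counting error, and fragments of 1 library are not replicates of a treatment.

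HOXA4 (chr7:27168126-27170399), an anterior trunk gene, had 7.40 FPKM with si4, 7.20 with si5 and 6.996 with si1 against 10.8 in the control. The siRNA libraries differed by less than 0.5 FPKM, from 719, 990 and 633 fragments against 962. The log2 ratio was -0.63 with si1 and -0.57 for the mean of si4 and si5, which falls just short of the limit of 0.58. HOXA7 (chr7:27193338-27196296), a thoracic gene, had 6.53 and 7.07 FPKM with si4 and si5, 5.56 with si1 and 8.80 in the control. Its log2 ratios were -0.37 and -0.66 for ZSCAN5A and si1, and the si1 interval of 56.9% to 70.1% of the control does not overlap the si5 interval of 73.7% to 87.7% but does overlap the si4 interval of 67.4% to 81.9%. Both genes were therefore below the control in every siRNA library, HOXA4 by a like amount and HOXA7 by unequal amounts.

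HOXB5 (chr17:46668619-46671103), a gene of the lower hindbrain and gut neurons, was the other member past the limit with the ZSCAN5A siRNAs. It stood at 3.17, 3.71 and 4.64 FPKM in si4, si5 and si1 against 5.37 in the scrambled library, which rest on 327, 541, 446 and 507 fragments. The log2 ratio was -0.64 for the mean of si4 and si5 and -0.21 for si1. With si1 it was at 86.6% of the control (76.0% to 98.5%), above the whole si4 interval of 51.3% to 68.0% but overlapping the si5 interval of 61.1% to 78.1%. These intervals too share the control fragments, so their overlap does not compare si1 with si5 directly. HOXB5 lies within the antisense row HOXB-AS3, which had 26.7, 27.4, 19.4 and 25.1 FPKM in the same order. HOXB6 lies within HOXB-AS3 too. HOXA5 and HOXA6 lie within the antisense row HOXA-AS3, which HOXA7 overlaps, and HOXD1 overlaps HOXD-AS1. How the authors' counting treated strand is not given in the sources used here, so reads of these genes and the antisense rows may not be fully separated.

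**Figure D3:**
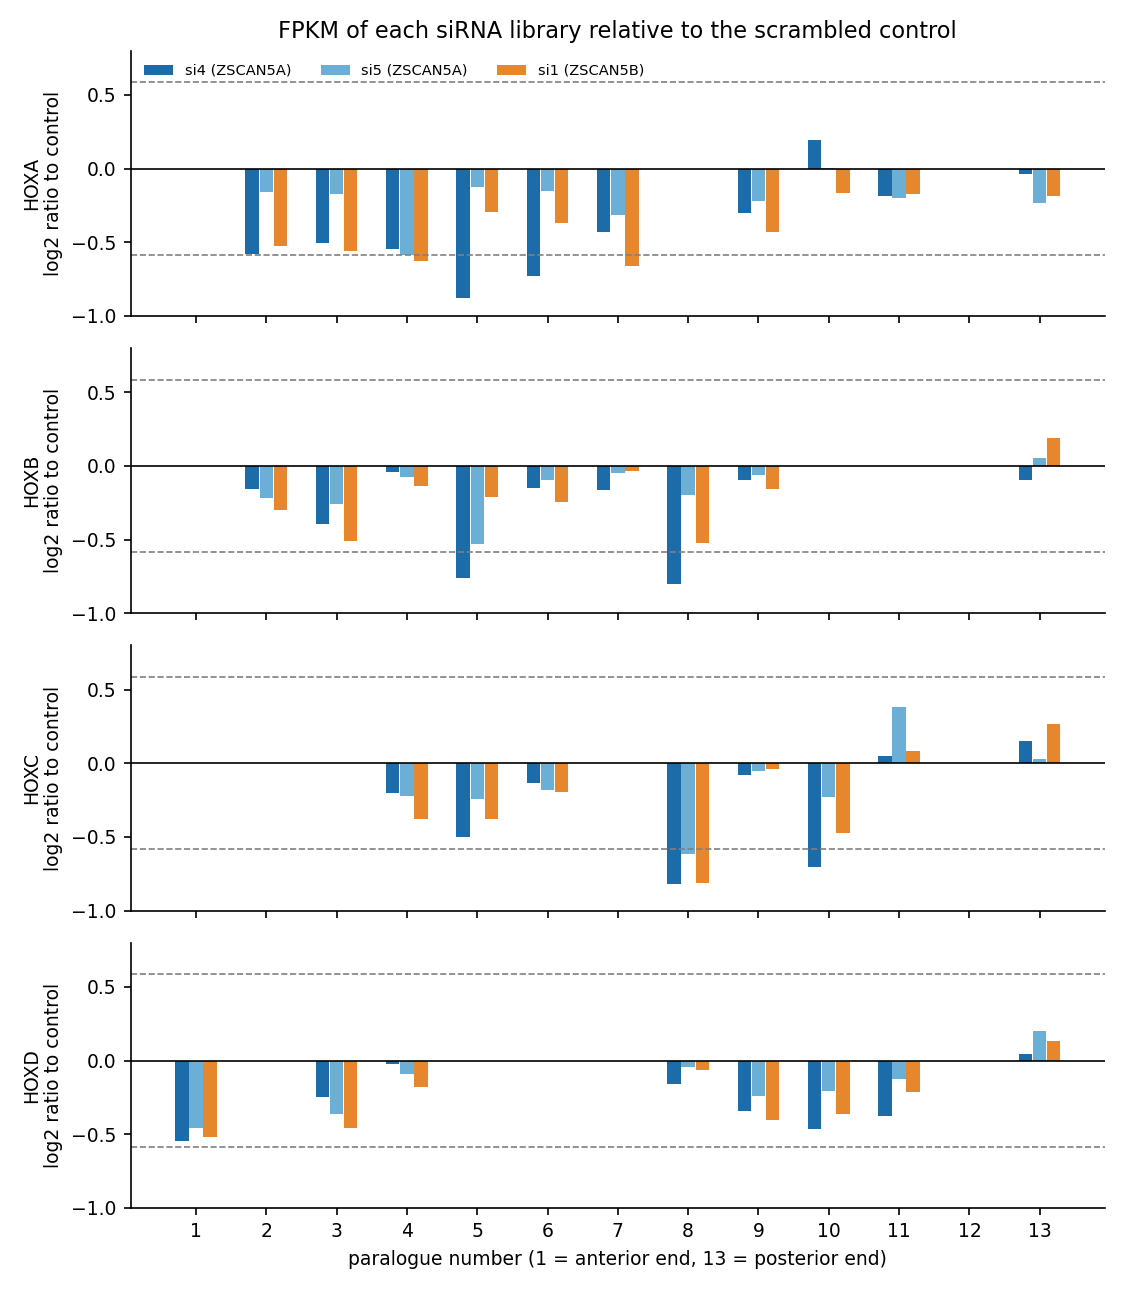
Log2 ratio of the FPKM in si4, si5 and si1 to that in the scrambled control for expressed HOX genes, by paralogue number, 1 panel per cluster, with dashed lines at 1.5-fold either way. HOXC8 is the only gene with all 3 bars past the lower line, no bar passes the upper line, and bars above 0 are found only from paralogue 10 onward.

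The 2 siRNAs against ZSCAN5A did not give the same values for all members. Between them, 25 of 36 HOX genes were higher and 11 lower with si5, where 54.6% of all rows were lower with si5. The median log2 ratio of si5 to si4 was 0.11 over HOX genes and -0.02 over all rows. More than 1.5-fold apart were HOXA5 and HOXB8, both higher with si5, where 1.56% of all rows were higher and 0.969% were lower with si5 by that limit. HOXA5 was at 16.0 FPKM with si4, 27.1 with si5 and 24.0 with si1 against 29.5 in the control, from 1487, 3554, 2073 and 2507 fragments. It was thus near 54.3% of the control with si4 and 91.8% with si5, and the ratio of si5 to si4 was 1.69 (1.59 to 1.796). HOXB8 (chr17:46689708-46692301), another thoracic gene, was at 2.81, 4.28, 3.41 and 4.90 FPKM, or 57.2%, 87.3% and 69.6% of the control for the siRNA libraries. For both genes only the si4 library was more than 1.5-fold below the control, and HOXB8 with si1 fell short of that limit.

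Taken singly, si4 placed 6 members more than 1.5-fold below the control, where 5.21% of all rows were, and si5 placed 2, where 2.95% were. Those with si4 were HOXA5, HOXA6, HOXB5, HOXB8, HOXC8 and HOXC10, and those with si5 were HOXA4 and HOXC8. The median log2 ratio to the control was -0.23 with si4 and -0.18 with si5. Set against the mean of si4 and si5, the library labelled ZSCAN5B knockdown had 0 members past the limit in either direction, where 1.31% of all rows were past it, and a median log2 ratio of -0.06, against 0.01 for all rows, with 25 of 36 lower against 46.2% of all rows. This comparison does not use the control library.

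Position along the clusters went with the ratios. In paralogue groups 1 to 8, 22 of 22 expressed members had the control above all 3 siRNA libraries, against 36.2% of all rows. In groups 9 to 11 it was 8 of 10, and in group 13 it was 1 of 4. These bands were drawn after the values were seen and are a description. The 7 members of groups 1 to 3 had a median log2 ratio of -0.32 with the ZSCAN5A siRNAs and -0.51 with si1, the 15 of groups 4 to 8 had -0.36 and -0.30, and the 10 of groups 9 to 11 had -0.22 and -0.19. The 4 members of group 13 had 0.04 and 0.16. Across the 36 genes the Spearman correlation of paralogue number with the log2 ratio was 0.39 for the ZSCAN5A siRNAs and 0.53 for si1, and it was positive within each cluster in both comparisons (0.33 to 0.50 and 0.45 to 0.64). The points share the same 4 libraries and neighbouring genes overlap, so no p-value is attached.

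The anterior groups were below the control throughout. HOXA2 was at 1.19, 1.58 and 1.23 FPKM in si4, si5 and si1 against 1.77 in the control. HOXA3, which acts in the thymus and parathyroid, was at 3.02, 3.81 and 2.91 against 4.28 FPKM. HOXB3 was at 10.2, 11.2 and 9.43 against 13.4 FPKM. HOXD1 was at 2.78, 2.96 and 2.83 against 4.06 FPKM and HOXD3 at 3.10, 2.86 and 2.68 against 3.68 FPKM. In each of them the control was the highest library. HOXD1, the most uniform, had siRNA values within 0.2 FPKM of one another.

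The remaining members of the middle groups were mostly closer to the control. HOXB4, known in blood stem cells, was at 5.86, 5.71 and 5.47 FPKM in si4, si5 and si1 against 6.02, and each of its counting intervals spans 100% of the control. HOXB6 was at 84.3% to 93.5% of the control and HOXC5 at 70.7% to 84.6%. HOXA6 was at 60.4% with si4 and at 90.2% and 77.5% with si5 and si1. HOXD8 was at 89.5% to 97.0%, with siRNA levels of 12.3 to 13.4 FPKM. The same holds for several abundant genes named above, since HOXB7, HOXC9 and HOXD4 were at 88.4% or more of the control in every siRNA library. A high level therefore did not go with a large difference, and the Spearman correlation of control FPKM with the log2 ratio over the 36 genes was 0.19 and 0.21. Within clusters it ranged from -0.14 in HOXC to 0.23 in HOXA with the ZSCAN5A siRNAs. With si1 it ranged from -0.08 in HOXB to 0.56 in HOXA, where the correlation with paralogue number was 0.52.

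In the posterior groups the directions parted. HOXA11, a gene of kidney and limb, was at 12.4, 12.3 and 12.5 FPKM in si4, si5 and si1 and 14.1 in the control, and HOXD9 was at 10.99, 11.8 and 10.5 against 13.96 FPKM. HOXC10 was at 2.13, 2.96 and 2.49 against 3.46 FPKM. HOXC11 instead was at 1.92, 2.41 and 1.96 against 1.85 FPKM, or 104%, 130% and 106% of the control. HOXC13, a gene of hair and nail, was at 7.74, 7.10 and 8.38 against 6.97 FPKM, and HOXD13, a gene of the digits, at 10.1, 11.3 and 10.7 against 9.79 FPKM. HOXB13, known from the prostate, was at 2.91, 3.23 and 3.55 against 3.11 FPKM. HOXA13, a gene of the hand and genital tract, was the only member of group 13 below the control in every siRNA library, at 11.2, 9.74 and 10.0 against 11.4 FPKM. None of these differences reached 1.5-fold in the mean of si4 and si5 or in si1.

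Whole fragments behind the FPKM values could be read for 26 members, of which 23 were expressed. Counted over these 23, the interval lay wholly below the control in 16 members with si4, 12 with si5 and 16 with si1, and wholly above it in 1, 2 and 3. In 11 members all 3 intervals were below the control, in 0 all 3 were above it, and in 2 no interval was clear of it. For HOXA11, HOXA13, HOXB8 and HOXC11 the whole numbers may be a fraction of the true fragments, which would narrow their intervals. Over the 19 members without these 4, a grouping made after the values were seen, 14, 10 and 13 intervals lay below the control and 1, 1 and 3 above it, and 10 members had all 3 below. No share over all rows was computed for these counts, so they describe single members and do not set HOX genes apart from other genes. The spread between separate cultures of 1 treatment was not measured.

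**Figure D4:**
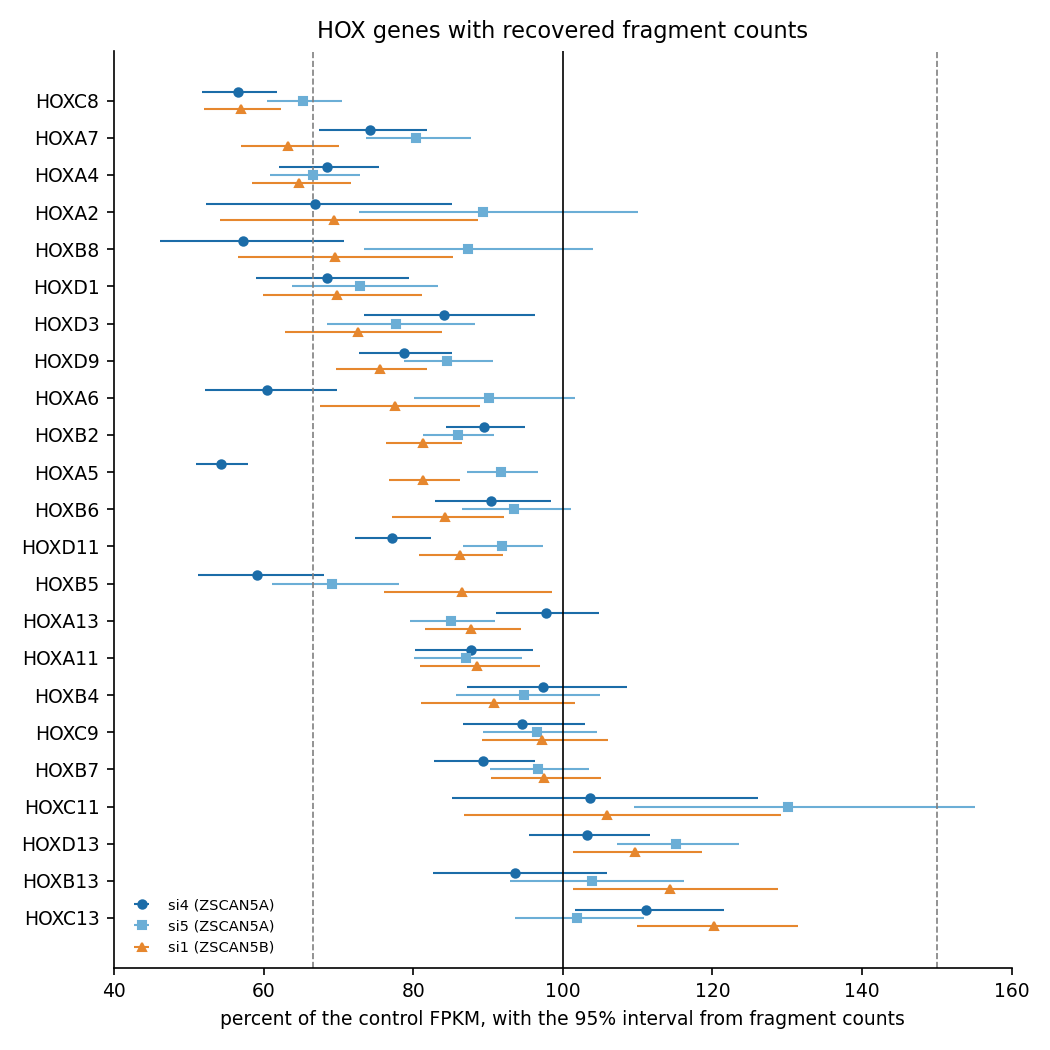
FPKM in si4, si5 and si1 as a percent of the scrambled control for the 23 expressed HOX genes with recovered fragments, with exact 95% intervals that cover counting error alone. Dashed lines mark 1.5-fold lower and higher. All 3 intervals lie below 100% in 11 genes, from HOXC8 to HOXA11, and in 0 genes do all 3 lie above it. No share over all rows was computed for these counts. Intervals of HOXA11, HOXA13, HOXB8 and HOXC11 may be too wide.

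Transcript length and GC content also moved with the ratios across the table. The expressed HOX genes had a median transcript length of 1989 bases and a GC content of 54.9%, against 3303 bases and 48.2% for all rows. Rows of like length and GC content had median log2 ratios of 0.00 and 0.02 in the 2 comparisons. After these were subtracted, the HOX medians were -0.26 and -0.38, with 31 and 32 of 36 members below 0. Past the limit 3 members were then lower with the ZSCAN5A siRNAs (HOXC8, HOXA4 and HOXB5) and 4 with si1 (HOXC8, HOXA4, HOXA7 and HOXA2), where 2.48% and 2.82% of all rows were past it in either direction. The result was as large with the correction as without it. Over the 36 HOX genes, the correlation of transcript length with the log2 ratio was 0.24 and 0.08, ranging within clusters from -0.02 in HOXD to 0.73 in HOXA with the ZSCAN5A siRNAs and from -0.12 in HOXB to 0.30 in HOXA with si1. In HOXA with the ZSCAN5A siRNAs length thus followed the ratio more closely than paralogue number did (0.33). The correlation with GC content was -0.004 and 0.01 over the 36 genes, but ranged within clusters from -0.50 in HOXA to 0.37 in HOXB with the ZSCAN5A siRNAs and from -0.31 in HOXA to 0.31 in HOXC with si1.

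The neighbours of the clusters did not show the pattern of the HOX genes. Of 55 rows within 500 kb outside a cluster, 33 were expressed, with a median log2 ratio of -0.04 in both comparisons, 19 lower with the ZSCAN5A siRNAs and 18 lower with si1. The control was above all 3 siRNA libraries in 13 of these 33, or 39.4%, against 86.1% of the expressed HOX genes and 36.2% of all rows. One of them, LOC100652999 near HOXC, was past the limit, at 1.77, 2.19 and 2.40 FPKM against 4.16. EVX1 and EVX2, the homeobox genes at the posterior ends of HOXA and HOXD, stayed under 0.1 FPKM.

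Inside the clusters 17 other rows are listed, and 8 of them were expressed, with 4 below the control in each comparison. HOTAIRM1, a noncoding RNA at the anterior end of HOXA, was at 30.0, 29.0 and 32.2 FPKM in si4, si5 and si1 and 28.4 in the control, and its log2 ratios of 0.05 and 0.18 became -0.12 and -0.02 after the correction for length and GC content. HOTAIR, a noncoding RNA between HOXC12 and HOXC11, was at 3.75, 5.32 and 4.85 against 5.83 FPKM. Those 2 were picked for their place in the clusters and not by the naming rule. The readthrough row HOXA10-HOXA9 was at 1.596, 1.17 and 1.93 against 2.96 FPKM, log2 ratios of -1.10 and -0.62, and no other of the 8 passed the limit. After the correction, which the other 7 could be given, 6 of them were below 0 with the ZSCAN5A siRNAs and 5 with si1, so the direction of the noncoding rows depends on it.

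Among genes known to act on or with the clusters, the MLL or trithorax complexes methylate histone H3 at active HOX genes. Before the correction for length and GC content they stood furthest from the control by list median, at -0.32 and -0.38. Of 14 listed members all were expressed, 12 were lower in each comparison, and 5 were more than 1.5-fold lower with the ZSCAN5A siRNAs and 6 with si1, against 3.11% and 3.17% of all rows. The control was above all 3 siRNA libraries in 12 of the 14 (85.7%), a share like that of the HOX genes. MLL2, a histone methyltransferase, was at 2.52, 2.96 and 3.05 FPKM in si4, si5 and si1 and 5.65 in the control. SETD1B, another methyltransferase, was at 1.27, 1.77 and 1.78 against 3.19 FPKM, and KDM6B, a demethylase that removes the Polycomb mark, at 2.38, 2.64 and 3.02 against 4.73. MLL3 and MLL4 had log2 ratios of -0.64 and -0.79 with the ZSCAN5A siRNAs and -0.80 and -0.76 with si1. The direction held after the correction for length and GC content, which 12 of the 14 members could be given (not MLL2 and MLL4), and the sizes were smaller. Of the 12, 10 were below 0 before it and 11 after it in each comparison, while their median went from -0.19 to -0.13 with the ZSCAN5A siRNAs and from -0.25 to -0.14 with si1. The number of these 12 past the limit went from 3 to 1 with the ZSCAN5A siRNAs, where SETD1B stayed past it, and from 4 to 1 with si1, where MLL3 did. The corrected log2 ratios of SETD1B were -0.70 and -0.48 in the 2 comparisons, those of MLL3 -0.50 and -0.64, those of MLL -0.30 and -0.46 (from -0.51 and -0.65) and those of KDM6B -0.54 and -0.32. A part of these genes in the HOX levels was not tested.

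Other lists had few or no members past the limit, where 3.11% of all rows were lower past it with the ZSCAN5A siRNAs and 3.17% with si1. The control was above all 3 siRNA libraries in 10 of 16 members of Polycomb repressive complex 1 and 5 of 8 TALE cofactors. That is 62.5% each, against 36.2% of all rows. Of 16 members of Polycomb repressive complex 1, CBX7 passed the limit in both comparisons, at 2.02, 1.72 and 1.83 against 3.17 FPKM, and PHC3 passed it with si1, with a log2 ratio of -0.61. Of 11 members of Polycomb repressive complex 2, which deposits the repressive mark, 0 passed, and the list medians were -0.07 and -0.16. Of 8 expressed TALE cofactors 0 passed, with medians of -0.07 and -0.16. Retinoic acid signalling is the pathway that induces anterior HOX genes in the embryo. Of 14 expressed genes listed for it, 11 and 9 were lower, against 53.3% and 51.5% of all rows, and 0 passed. Their medians were -0.23 and -0.06, the first of them as far from 0 as the HOX median. Geminin, a regulator of replication and chromatin, and CTCF, which binds at cluster boundaries, did not pass, and the median of the 4 expressed cluster-linked and ParaHox genes was -0.01 with the ZSCAN5A siRNAs.

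The miR-196 match was also set against the ratios. The 7 expressed HOX genes with a miR-196 seed match had a median log2 ratio of -0.26 with the ZSCAN5A siRNAs and -0.30 with si1. The 29 without had -0.21 and -0.30. Only the exact letters ACTACCT were searched for, so genes without them may still hold other sites. A part of miR-196 in the HOX levels was not tested. Over all genes tested, those with a match had medians of -0.055 and -0.055, and those without had -0.013 and -0.003. Promoter windows of 300 bases, 250 before to 50 after the start, were found in RefSeq (GRCh38.p14) for 20 of the 39 members, and HOXC4 and HOXC5 share 1 window. From HOXB only HOXB1, which was not expressed, had a window, and from HOXC only HOXC4 and HOXC5. HOXC8 and HOXB5 had none, so the shares below do not cover them. The windows were compared with other promoters and not with the ratios. The letters CCAAT, or ATTGG on the other strand, stood in 17 of these 20 (85%) against 35.7% of 27305 promoters of the same length. The letters GGGCGG, with CCGCCC on the other strand, stood in 50% against 44.6%, TATAAA or TTTATA in 20% against 12.0% and TAATTA, a homeodomain core that reads alike on both strands, in 10% against 4.98%. The median number of CG pairs was 22.5 against 14, at a GC content of 58.0% against 58.3%. These are letters found in the windows, and no binding was measured here.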

How the data were processed

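Poly(A) RNA libraries of HEK-293 were processed by the authors with CASAVA 1.8.2, Trimmomatic 0.30, TopHat2 2.1.0 and Cufflinks 2.2.1, as named in the submitters' processing notes, on hg19. The labels and the methods name different stranded library kits. The authors deposited 1 table of FPKM values for 24934 gene rows in 4 libraries, used as deposited. Ratios are to the control FPKM, without a pseudocount, for rows with at least 1 FPKM in a library of the comparison and neither side at 0. A member was called past 1.5-fold. Named members were those past it with the ZSCAN5A siRNAs (mean) or si1 against the control, between these or between si4 and si5, and the 3 highest of each cluster; HOXA6 and HOXC10, past it with si4 alone, were not among them. Fragments are the smallest whole numbers (up to 4000, a limit set after looking at the data) in proportion to the 4 values. For 2 members the numbers were too large for the transcript and were not used. Intervals are Clopper-Pearson, with a 95% confidence level. Lengths, GC content and 3′ UTRs came from GENCODE on GRCh37, which matched all 39 members. The members, lists and tests were chosen with earlier results of these data known. Methods were tested on simulated data. Python 3.11.15, NumPy 2.4.6, pandas 2.3.3, SciPy 1.17.1, matplotlib 3.10.9, R 4.3.3 and limma 3.58.1 were used. Alternatives covered the expression limit, pseudocount, scaling, fold limit, single siRNAs, limma and a length and GC correction. Values of 1 member are not reported here singly or drawn by gene, though they enter counts and medians.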

Additional observations from a re-analysis of the deposited data

Results flagged for a closer look

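HOXA10 was above the control with si4, level with it with si5 (above by less than 0.1 FPKM) and lower in the library labelled ZSCAN5B knockdown, with 63.9, 55.8 and 49.7 FPKM against 55.7 in the control. Its log2 ratio between si1 and the ZSCAN5A siRNAs (mean) was -0.27. With si5 the value was 100% of the control to 3 digits, and the difference between the knockdowns was not tested.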

How the results depend on the processing

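Under the alternatives that were run, the HOX median stayed below 0 in both comparisons. The log2 ratios of the 17 named members kept their sign in all 304 values, but many of these could not change sign. An expression limit leaves a ratio as it is, and a pseudocount keeps its sign, as does limma for the lone si1 library. The count past the limit with the ZSCAN5A siRNAs went from 2 to 4 without an expression limit (3 lower and 1 higher of 38, where 13.7% of all rows passed). The added 2 were HOXC12 and HOXD12, whose fragments, read as 0 to 15, may be a fraction of the true number. The count went to 1 with a pseudocount of 1, to 0 with a limit of 2-fold and to 14 with the lowest fold limit tried. It was 2 without si4 and 6 without si5. With si1 it went from 3 to 1 with a pseudocount of 1, to 0 with 2-fold and to 17 with the lowest limit. The share of all rows past those 2 limits either way was 0.562% and 18.5% for ZSCAN5A and 0.519% and 19.5% for si1. limma on log2(FPKM + 1), with 1 residual degree of freedom and the lone libraries assumed to vary as si4 and si5 do, called 0 HOX genes in either comparison at an adjusted p of 0.05. At an unadjusted p under 0.05 it had 5 and 10 of 36, where 12.3% and 9.92% of all rows were, the lowest Benjamini-Hochberg adjusted p of limma was 0.399 and 0.497, and over all rows it called 10 and 15. The median of the ZSCAN5A siRNAs was -0.19 with a limit of 5 FPKM and -0.19 with median-ratio scaling, and -0.18 to -0.23 with 1 siRNA left out. That of si1 was -0.21 with a limit of 5 FPKM and -0.38 with the length and GC correction. With median-ratio scaling the median of all rows moved too, from -0.02 to 0.02 with the ZSCAN5A siRNAs. The cause of the other shifts was not tested. The control was above all 3 siRNA libraries in 24 to 31 members, 24 of 27 with a limit of 5 FPKM and 29 of 36 with median-ratio scaling. No paired analysis was possible because the groups share fewer than 2 replicate numbers. The single control library enters every comparison with the control and limits them all.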
